A study of Mus musculus with 6 samples.

Results

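Tumors of the R499 line were compared with tumors of its parental line B16 taken from mice given anti-PD1 (B16PD1). The cells were those of tumors R499015 and R499016 on one side and of B16PD1000 and B16PD1002 on the other, and a cell was kept if it had over 1000 genes with TPM above 0 and a mitochondrial share of TPM under 10%. This left 330 of 401 cells (156 of R499 and 174 of B16PD1), of 507 retained cells among 602 in the whole experiment. Tumors served as replicates, 2 on each side, and cells did not.

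B16 is the B16-F10 mouse melanoma line, and R499 (Res499) is a line derived from a B16 tumor that had relapsed after radiation with anti-CTLA4, an antibody against another T cell checkpoint. Each C57BL/6 mouse was injected under the skin on both flanks, with 50000 cells, and tumors were harvested on day 15. Mice of the B16PD1 group were given 200 µg of anti-PD1 on day 5, day 8 and day 11, while the R499 mice and the untreated B16 mice (tumors B16007 and B16008) received none. Sorting for cells without CD45, a marker of immune cells, preceded full-length Smart-seq on the ICELL8 system. The comparison changes line and treatment at once, so the 2 cannot be told apart in it, and R499 is a single line. Where a gene's level is given by tumor, the untreated B16 tumors are given beside the others, and the R499 tumors are the same in both comparisons.

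PD1 is an inhibitory receptor of T cells, and antibodies against it release T cells to attack tumor cells that present antigen on MHC class I. Melanoma cells are also known to move between a pigmented, proliferative state and a less differentiated, invasive state, with changes of the actin cytoskeleton, of adhesion and of secreted matrix proteins. Among the products of the genes described here, fascin bundles actin, caveolin-1 builds membrane invaginations called caveolae, and kalirin is a guanine nucleotide exchange factor.

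For the genes past the threshold, 250 bases upstream of the RefSeq start site (GRCm38.p6) are shown for 4 of the 8, namely the gene with the smallest adjusted p, 1 with a large positive difference, the gene whose upstream sequence held the most motifs, and the secreted factor that was lower. Capitals mark matches, on either strand, to one of 6 short motifs that were searched: AP-1 (TGANTCA), the M-box core CATGTG, the palindrome CACGTG, the TATA box TATAAA, the TEAD motif GGAATG and the GC box GGGCGG. The general E-box CANNTG, of which CATGTG and CACGTG are forms, was searched as well and is not marked, since 66.2% of all promoters in the RefSeq table held it. Positions count back from the start site, with the base before it as -1.
Fscn1, chr5:142960105-142960354, plus strand: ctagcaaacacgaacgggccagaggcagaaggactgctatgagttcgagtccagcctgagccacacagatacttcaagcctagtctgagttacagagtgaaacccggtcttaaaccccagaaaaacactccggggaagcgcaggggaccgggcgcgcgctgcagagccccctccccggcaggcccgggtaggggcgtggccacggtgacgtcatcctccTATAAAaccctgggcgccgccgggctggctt
Cav1, chr6:17306085-17306334, plus strand: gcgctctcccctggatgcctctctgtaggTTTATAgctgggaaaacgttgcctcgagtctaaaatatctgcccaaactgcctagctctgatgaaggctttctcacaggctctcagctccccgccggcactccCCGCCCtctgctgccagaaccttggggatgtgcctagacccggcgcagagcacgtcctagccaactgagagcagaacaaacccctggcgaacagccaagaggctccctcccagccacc
Capn6, chrX:143827413-143827662, minus strand: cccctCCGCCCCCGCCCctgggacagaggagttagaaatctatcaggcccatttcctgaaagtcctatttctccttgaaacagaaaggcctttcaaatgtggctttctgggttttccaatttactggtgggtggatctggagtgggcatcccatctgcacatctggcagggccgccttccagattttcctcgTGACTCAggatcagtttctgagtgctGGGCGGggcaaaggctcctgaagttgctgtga
Serpinf1, chr11:75422624-75422873, minus strand: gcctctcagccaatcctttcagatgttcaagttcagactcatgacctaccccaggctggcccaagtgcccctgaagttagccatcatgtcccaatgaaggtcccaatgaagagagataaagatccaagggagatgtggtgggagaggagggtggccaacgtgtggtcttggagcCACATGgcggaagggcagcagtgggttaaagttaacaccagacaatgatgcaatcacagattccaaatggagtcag
Fscn1 held a TATA box whose first base was at -31. Capn6 held 3 GC boxes and an AP-1 motif at -58, Cav1 held a TATA box at -221 and a GC box at -118, and Serpinf1 held the M-box core at -76. Among all 32851 promoters of the RefSeq table, 12.4% held the TATA box, 32.7% the GC box, 6.75% AP-1, 12.3% the M-box core, 6.02% CACGTG and 12.6% the TEAD motif. These matches are descriptions of the letters and not of binding. Itm2a and Tmsb4x held a GC box each, the sequence listed for Kalrn, which precedes a start inside the annotated gene, held no match, and Aldh1a3 is named only.

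The retained cells expressed the genes of melanoma cells in all 4 tumors. At least 1 of the 7 melanoma markers was detected in 100% of cells of each tumor, with Pmel, Dct and Tyrp1 in every cell. Of the T and NK cell markers 6 of 9 were at 0 in all retained cells (Cd3d and Cd8a among them), as were 6 of 9 endothelial markers (Cdh5, Kdr), 6 of 7 keratinocyte markers (Krt5, Krt14) and 4 of 10 fibroblast markers (Col1a1, Pdgfra). The summed TPM of 13 myeloid markers was 56.1 and 257 in B16PD1 and 64.3 and 23.1 in R499. Some markers were detected more often. The endothelial marker Egfl7 was detected in 25.6% and 28.4% of B16PD1 cells and in 11.1% and 20% of R499 cells, so both R499 tumors lay lower. At least 1 of 9 B and dendritic cell markers was detected in 25.6% and 33% of B16PD1 cells and in 33.3% and 29.3% of R499 cells, and the most frequent, Cd74, in 17.4% and 22.7% against 22.2% and 13.3%. For the 13 myeloid markers the share with at least 1 was 29.1% and 25% in B16PD1 and 32.1% and 29.3% in R499. For 6 erythroid and muscle markers it was 18.6% and 6.82% in B16PD1 and 8.64% and 12% in R499. Cells with at least 2 markers of other cell types made up 39.5% and 36.4% of B16PD1 and 32.1% and 32% of R499. Without them 10 genes passed in the comparison described next, with Capn6 and Aldh1a3 no longer among them. Each of the 602 cells had a well name of its own, and 0 names were shared between tumors. Depth was described by the genes detected. The median number of genes per retained cell was 3807.5 and 3838.5 in B16PD1 and 3141 and 3682 in R499, so both R499 tumors lay lower (3412 ± 383 against 3823 ± 21.9, SD, n = 2 tumors each). An exact permutation test over 4 tumors gave p = 0.333, the smallest it can give. The difference of -411.5 genes was -141 without R499015 and -682 without R499016. Fewer cells passed the filter in R499 (80.2% and 75%) than in B16PD1 (86% and 88%), again with an exact permutation p of 0.333.

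Of 11264 genes tested, 8 differed between R499 and B16PD1 at an adjusted p under 0.05 (0.071% of genes tested), by limma with Benjamini-Hochberg adjustment. Higher in R499 were Cav1, Kalrn, Tmsb4x, Capn6, Fscn1 and Itm2a (6 genes, 0.0533%), and lower were Serpinf1 and Aldh1a3 (2 genes, 0.0178%). At an unadjusted p under 0.05 there were 1149 genes (10.2%), of which 176 were higher in R499 and 973 lower (1.56% and 8.64% of genes tested). Both R499 tumors lay above both B16PD1 tumors for 10.2% of genes and below them for 31.3%, and 32.8% of genes had a difference above 0. This split followed the scale: the median difference of all genes was -0.089 on the log2(TPM + 1) scale, and subtracting each cell's mean added 0.135 to every difference, which moved the median to 0.046. The share of unadjusted calls that were higher in R499 was then 67.9% of 1357, against 15.3% without it. Differences are therefore to be read against -0.089. They compare means of log2(TPM + 1) over cells, many of them at 0 for a given gene. They are thus not fold changes of mean TPM and can lie above or below them. The 8 genes kept their direction under every alternative in which they were tested, but none passed when no genes were filtered out, when the mean number of genes detected was a covariate, when limma had no trend, when the logarithm was taken of the tumor's mean TPM, or when the share of detecting cells was tested (604 to 1415 genes then had an unadjusted p under 0.05).

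**Figure D1:**
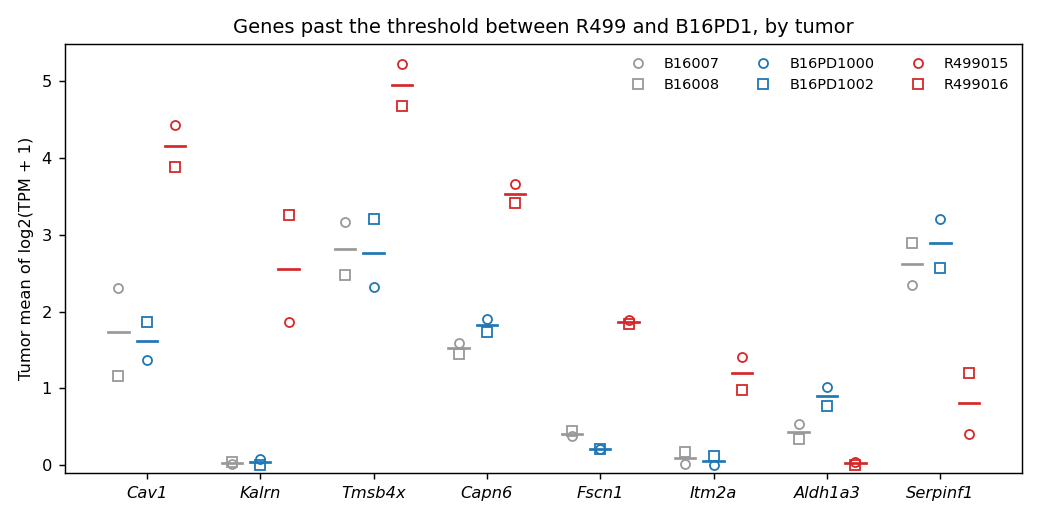
Tumor means of log2(TPM + 1) for the 8 genes past the threshold (circles and squares, 1 symbol per tumor; horizontal lines, mean of the 2 tumors of a condition; gray, untreated B16; blue, B16PD1; red, R499). Both R499 tumors lie above the other 4 tumors for Cav1, Kalrn, Tmsb4x, Capn6, Fscn1 and Itm2a and below them for Aldh1a3 and Serpinf1.

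Fscn1 (chromosome 5, 142960343 to 142973185 on GRCm38, plus strand) encodes fascin, which ties actin filaments into the tight bundles of filopodia. Its tumor mean of log2(TPM + 1) was 0.22 and 0.21 in B16PD1, 0.38 and 0.44 in untreated B16, and 1.89 and 1.84 in R499. The 2 R499 tumors differed from each other by less than any gap to the other tumors. The difference R499 minus B16PD1 was 1.65 ± 0.19 (SE, limma, adjusted p = 0.0021). TPM was above 0 in 34.6% and 34.7% of R499 cells and in 6.98% and 4.55% of B16PD1 cells.

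Tmsb4x (chromosome X, 167207093 to 167209315 on GRCm38, minus strand) encodes thymosin beta 4, which holds actin monomers apart from filaments. It was at 2.32 and 3.21 in B16PD1, 3.17 and 2.47 in untreated B16, and 5.23 and 4.68 in R499. The R499 tumors were the 2 highest, and the B16PD1 and untreated B16 tumors overlapped. The difference was 2.19 ± 0.39 (SE, adjusted p = 0.045). The authors' quantification could share its reads with near-identical copies elsewhere in the genome, so the level of this gene is uncertain. On the linear scale its mean TPM was 55.2 and 159 in B16PD1, 249 and 79.4 in untreated B16, and 227 and 157 in R499, so there the R499 tumors overlapped the others. Among 35 members of an actin and actin-binding list Fscn1 and Tmsb4x were the 2 that passed. At an unadjusted p under 0.05, 3 members, these 2 among them, were higher (8.57%, against 1.56% of all genes) and 0 lower. The list was chosen with earlier results of these data known and holds both called genes, so this share is a description. The paralog Tmsb10 differed by 0.13 (adjusted p = 0.87) and the most abundant member, the cytoplasmic actin gene Actg1, by 0.02 (adjusted p = 0.97). The list's median was 0.076, against -0.089 over all genes.

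Kalrn (chromosome 16, 33969073 to 34573532 on GRCm38, minus strand) encodes kalirin, a guanine nucleotide exchange factor for Rac1. Its tumor mean was 0.084 and 0 in B16PD1, 0.016 and 0.047 in untreated B16, and 1.86 and 3.26 in R499. The gene was near 0 in all 4 tumors of the parental line, and the R499 tumors stood apart from each other. The difference was 2.52 ± 0.32 (SE, adjusted p = 0.0029). In R499015, 28 of 81 cells held it (34.6%, Wilson interval 25.1 to 45.4%), and in R499016 48 of 75 (64%, 52.7 to 73.9%), intervals that do not overlap. In B16PD1 it was detected in 2 of 86 cells and in 0 of 88 cells, which allows a share of up to 3.41%. These intervals and limits cover counting error over cells only. A processed pseudogene lies within the gene, and its reads could be shared. The exchange factor gene Trio, its paralog, differed by -0.04 (adjusted p = 0.92).

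Cav1 (chromosome 6, 17306335 to 17341452 on GRCm38, plus strand) encodes caveolin-1, the main scaffold protein of caveolae. Its tumor mean was 1.38 and 1.86 in B16PD1, 2.31 and 1.16 in untreated B16, and 4.43 and 3.88 in R499. Both R499 tumors were above the rest, while the parental tumors overlapped whatever their treatment. The difference was 2.54 ± 0.38 (SE, adjusted p = 0.015), and detection was 65.4% and 64% of R499 cells against 26.7% and 31.8% of B16PD1 cells. An annotated antisense gene overlaps Cav1 and its neighbor Cav2 (chromosome 6), and since the use of strand in counting is not given in the sources used here, their reads cannot be told apart. Cav2, which forms oligomers with caveolin-1, was the most abundant of 9 caveola and membrane-domain genes tested, with 4.72 and 4.55 in B16PD1, 4.97 and 4.37 in untreated B16, and 5.33 and 5.21 in R499. Its difference of 0.64 did not pass (adjusted p = 0.53). The other scaffold genes differed by 0.64 (Flot1, adjusted p = 0.45), 0.41 (Cavin2, 0.60), -0.01 (Ehd2, 0.96), 0.12 (Pacsin2, 0.94), -0.09 (Cavin1, 0.91), -0.26 (Pacsin3, 0.45) and -0.45 (Flot2, 0.53), so Cav1 alone passed, and the list's median was 0.119.

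Capn6 (chromosome X, 143802231 to 143827414 on GRCm38, minus strand) encodes a calpain that lacks the catalytic cysteine and binds microtubules. It was at 1.91 and 1.74 in B16PD1, 1.60 and 1.44 in untreated B16, and 3.66 and 3.42 in R499. The 3 conditions did not overlap, and R499 was the highest. The difference was 1.72 ± 0.30 (SE, adjusted p = 0.045), with detection in 67.9% and 66.7% of R499 cells against 40.7% and 35.2% of B16PD1 cells. Of 9 calpain and calpastatin genes tested it was the only 1 past the threshold. In R499 it was the most abundant of them, while in B16PD1 it lay below Capns1 (2.0 and 3.10) and Cast (2.65 and 2.39). The conventional calpain genes Capn1 and Capn2 differed by 0.02 (adjusted p = 0.94) and -0.16 (0.87), the small subunit gene Capns1 by 0.06 (0.97) and the inhibitor gene Cast by -0.15 (0.89).

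Itm2a (chromosome X, 107397099 to 107403376 on GRCm38, minus strand) encodes a membrane protein. It was at 0 and 0.12 in B16PD1, 0.02 and 0.18 in untreated B16, and 1.41 and 0.98 in R499. It was rare in the parental line with or without treatment. The difference was 1.14 ± 0.15 (SE, adjusted p = 0.0036). The gene was detected in 27.2% and 18.7% of R499 cells, and in 0 of 86 and 2 of 88 B16PD1 cells, where 0 of 86 allows a share of up to 3.49%.

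Serpinf1 and Aldh1a3 were the genes lower in R499. Serpinf1 (chromosome 11, 75409769 to 75422701 on GRCm38, minus strand) encodes PEDF, a secreted inhibitor of blood vessel growth. It was at 3.20 and 2.57 in B16PD1, 2.34 and 2.89 in untreated B16, and 0.41 and 1.20 in R499. The R499 tumors lay below every tumor of the parental line. The difference was -2.08 ± 0.35 (SE, adjusted p = 0.041), and detection was 7.41% and 20% of R499 cells against 48.8% and 38.6% of B16PD1 cells. Of 23 tested genes for matrix proteins and protease inhibitors it was the only 1 that passed, with a list median of -0.024. Spp1, which encodes osteopontin, was at 0.51 and 0.62 in B16PD1, 0.68 and 0.31 in untreated B16, and 1.66 and 2.20 in R499 and missed the threshold (1.36 ± 0.25, SE, adjusted p = 0.052), while the most abundant member, the cystatin C gene Cst3, differed by 0.01 (adjusted p = 0.99).

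Aldh1a3 (chromosome 7, 66390890 to 66427517 on GRCm38, minus strand) encodes an aldehyde dehydrogenase that makes retinoic acid. Its tumor mean was 1.03 and 0.78 in B16PD1, 0.53 and 0.34 in untreated B16, and 0.048 and 0 in R499. The B16PD1 tumors were the 2 highest of the 6, the untreated B16 tumors lay between, and R499 was lowest. The difference R499 minus B16PD1 was -0.88 ± 0.14 (SE, adjusted p = 0.018). It was detected in 2 of 81 and 0 of 75 R499 cells, the latter allowing a share of up to 4%, against 18 of 86 and 15 of 88 B16PD1 cells. Against untreated B16 the difference was -0.41 (adjusted p = 0.35).

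Set beside the comparison with untreated B16, which uses the same R499 tumors, the other 7 genes had differences in the same direction. R499 minus untreated B16 was 2.42 for Cav1, 2.53 for Kalrn, 2.13 for Tmsb4x, 2.02 for Capn6, 1.45 for Fscn1, 1.10 for Itm2a and -1.81 for Serpinf1. There, Cav1, Kalrn, Capn6, Fscn1 and Itm2a also passed (adjusted p = 0.018, 0.0054, 0.014, 0.0057 and 0.0057), and Tmsb4x and Serpinf1 did not (0.059 and 0.081). B16PD1 minus untreated B16 ranged over the 8 genes from -0.20 for Fscn1 to 0.47 for Aldh1a3, with adjusted p of 0.989 to 0.998. The difference between the 2 comparisons was not tested.

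When each of the 6 tumors was left out in turn, Fscn1 and Kalrn passed in 6 of 6 fits, Itm2a in 5 (not without B16PD1000), Cav1 and Serpinf1 in 4 (not without B16PD1000 or R499015), Tmsb4x and Aldh1a3 in 3 (not without B16PD1000, R499015 or R499016) and Capn6 in 0. The count of genes past the threshold fell from 8 to 3 without B16PD1000 and to 3 without R499015. Other choices also ended calls. Capn6 did not pass with only the 4 tumors in the fit, Capn6 and Aldh1a3 did not without cells that held 2 markers of other types, and Capn6, Aldh1a3 and Serpinf1 did not in cells under 5% mitochondrial TPM.

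**Figure D2:**
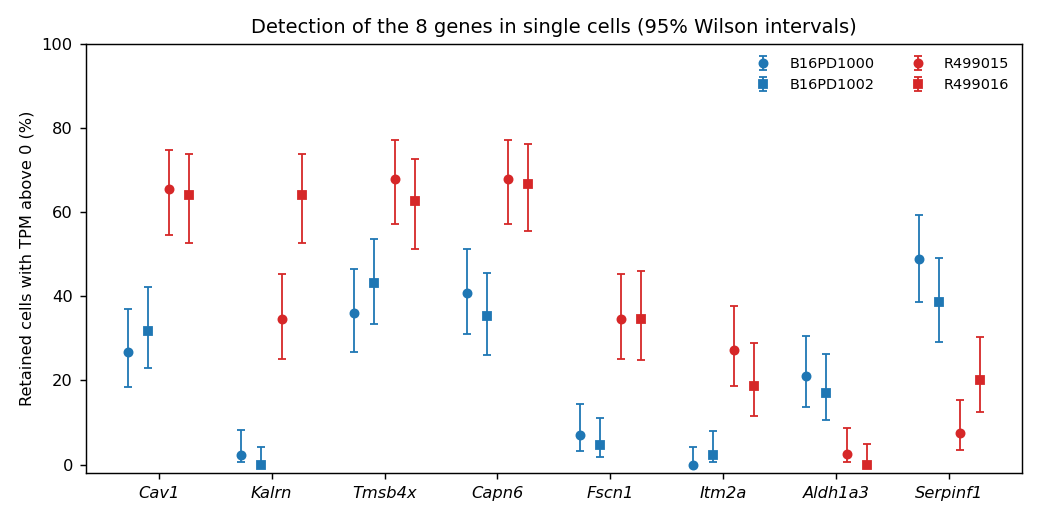
Share of retained cells with TPM above 0 for each of the 8 genes in the 4 tumors compared (points, percent of cells; bars, 95% Wilson intervals; blue, B16PD1; red, R499). For Kalrn the R499 tumors differ, at 34.6% and 64%, and for Fscn1 they are alike, at 34.6% and 34.7%.

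Cav1, Tmsb4x and Capn6 were each detected in most cells of both R499 tumors. Fscn1 and Itm2a were each detected in a minority of them, and Kalrn in a minority in R499015 only. Of the 6 genes higher in R499, at least 3 were detected in 54 of 81 cells (66.7%, Wilson interval 55.9 to 76%) of R499015 and in 47 of 75 cells (62.7%, 51.4 to 72.7%) of R499016. The same held for 9 of 86 (10.5%) and 5 of 88 (5.68%) cells of B16PD1, and for 12.1% and 8.14% of untreated B16 cells. These shares use the values that chose the genes and are descriptions. All 6 genes were found together in 1 cell of R499015 and 4 cells of R499016 and in 0 cells of B16PD1. Neither Serpinf1 nor Aldh1a3 was detected in 90.1% and 80% of R499 cells, against 39.5% and 48.9% of B16PD1 cells.

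Within R499 tumors, the cells that held both genes of a pair were counted for the 6 genes. In R499015, Cav1 and Capn6 were both detected in 42 of 81 cells, against 36.0 from the product of their shares, and in R499016 in 37 of 75 against 32. Fscn1 and Itm2a were both detected in 6 cells of R499015 (7.60 from the product) and in 7 of R499016 (4.85). Over cells, the correlation of log2(TPM + 1) ranged in R499015 from -0.15 (Fscn1 and Itm2a) to 0.38 (Kalrn and Tmsb4x), and the latter pair had -0.059 in R499016. The cells of a tumor are not replicates and differ in the number of genes detected, so these values are descriptions.

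Because fewer genes were detected per cell in R499, cells were also placed in 4 bins by the number of genes detected. All 8 genes kept the sign of their difference in each of the 4 bins, with the cells of both tumors of a condition pooled. The same cells chose the genes, so the bin values are descriptions. The difference ran from 2.32 to 2.97 over the bins for Cav1, from 1.52 to 3.44 for Kalrn, from 0.62 to 2.51 for Fscn1 and from -2.83 to -0.79 for Serpinf1. With bins weighted alike in every tumor (cells matched on genes detected), the median difference of all genes was -0.0088 and 12 genes passed, including the same 8.

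**Figure D3:**
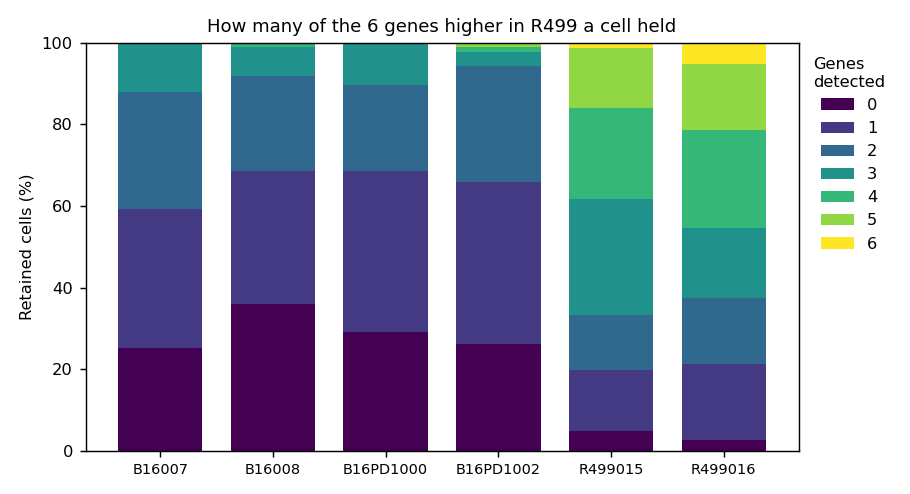
Share of retained cells (percent, stacked from 0 to 6) by how many of the 6 genes higher in R499 had TPM above 0, for each tumor. Cells with 3 or more make up 66.7% and 62.7% in R499 and 10.5% and 5.68% in B16PD1.

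Below the threshold, the largest positive differences described among genes with a mean of at least 1, an unadjusted p under 0.01 (2.84% of all genes tested) and no overlap between the groups were those of Mgarp (1.78), Kcnj13 (1.49), Apoe (1.44), Gng11 (1.42), Spp1 (1.36), Crip1 (1.24) and Pycard (1.23). Of these genes Kcnj13 and Spp1 had an adjusted p below 0.1 (0.095 and 0.052), and the others had 0.12 (Apoe) to 0.31 (Pycard). Apoe, the apolipoprotein E gene, was the most abundant of them, at 7.67 and 7.34 in B16PD1, 8.08 and 7.38 in untreated B16, and 8.96 and 8.92 in R499. Kcnj13, a potassium channel gene, lies within Gigyf2, and their reads could be shared.

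The largest negative differences described were those of Cyb5r1 (-1.78), Nupr1 (-1.74), Fxyd5 (-1.74), Rabggtb (-1.73), Car6 (-1.71), Psph (-1.60) and Rnaset2b (-1.56), with adjusted p from 0.057 for Car6 to 0.17 for Rnaset2b. Car6, a secreted carbonic anhydrase gene, was at 9.17 and 9.01 in B16PD1, 8.84 and 9.20 in untreated B16, and 6.90 and 7.87 in R499, so both R499 tumors were below the other 4. Nupr1, a stress-response gene, was at 6.15 and 5.97 in B16PD1, 5.08 and 6.05 in untreated B16, and 3.92 and 4.72 in R499. Rnaset2b has a near-identical neighbor, and its level is uncertain. None of these genes passed the threshold.

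The gene lists are described by their counts and medians, beside a median of -0.089 for all genes and of -0.203 for the 5779 genes with a mean of at least 1. Most lists hold mainly genes above that mean, so the second value is the closer background for them. Shares at an unadjusted p under 0.05 are set beside those of all genes tested and not of these 5779 genes. The list shares and their background are thus not matched on level. Among the 18 melanocyte lineage and pigment genes tested, 0 passed, 2 were higher at an unadjusted p under 0.05 (1.56% of all genes were) and the median was 0.134. It was -0.096 for R499 minus untreated B16 and -0.208 for B16PD1 minus untreated B16, so the sign turned against the untreated tumors. Pmel, whose product forms the fibrils of the melanosome, was at 11.25 and 11.23 in B16PD1, 11.63 and 11.26 in untreated B16, and 12.10 and 11.95 in R499 (0.78 ± 0.19, SE, adjusted p = 0.19). The R499 tumors were the 2 highest. It passed with cells over 2000 genes and with cells centered. Dct, the most abundant member, differed by 0.19 (adjusted p = 0.71). Of 14 dedifferentiation and mesenchymal genes 0 passed and the median was -0.047, with Vim at 0.22 (adjusted p = 0.81) and Zeb2 at -0.71 (0.52).

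Lists of DNA replication and cell division had medians below both background values. Of 43 S phase genes 0 passed, 0 were higher and 16 lower at an unadjusted p under 0.05 (37.2%, against 8.64% of all genes), and the median was -0.474. Mcm6, a subunit gene of the replicative helicase, was at 5.35 and 4.89 in B16PD1, 5.13 and 4.90 in untreated B16, and 3.73 and 4.03 in R499 (-1.24, adjusted p = 0.28). Both R499 tumors were below the other 4. Pcna, the most abundant member, overlapped between the groups (-0.31, adjusted p = 0.79). Of 51 G2/M genes 0 were higher and 5 lower (9.8%, near the share of all genes), with a median of -0.285. That median was 0.0011 for R499 minus untreated B16 and 0.284 for B16PD1 minus untreated B16, whereas the S phase median was -0.319 and 0.093. Cks1b was at 7.01 and 6.86 in B16PD1 and 5.17 and 5.68 in R499 (-1.51, adjusted p = 0.18), and 5.06 and 5.91 in untreated B16, so that the untreated and the R499 tumors overlapped. The tubulin gene Tubb4b differed by -0.28 (adjusted p = 0.84). The S phase median was -0.391 and the G2/M median -0.108 with cells matched on genes detected.

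Of 78 cytosolic ribosomal protein genes 0 passed, 0 were higher and 30 lower at an unadjusted p under 0.05 (38.5%), and the median was -0.413. Rps15a had the largest difference, at 9.68 and 9.69 in B16PD1, 9.36 and 8.34 in untreated B16, and 8.00 and 8.60 in R499 (-1.38, adjusted p = 0.17), and Rpl32, the most abundant, differed by -0.04 (adjusted p = 0.94). Many ribosomal protein genes have near-identical pseudogenes, so their levels are uncertain. Against untreated B16 the list's median was -0.081, and for B16PD1 minus untreated B16 it was 0.274. In cells matched on genes detected the median was -0.264.

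The ATF4 and ER chaperone lists had the 2 lowest medians of the lists described, although in cells matched on genes detected the S phase median was as low. Of 20 ATF4 amino acid response genes 0 were higher and 9 lower at an unadjusted p under 0.05 (45%), with 0 past the adjusted threshold and a median of -0.544. Psph, the last enzyme of serine synthesis, was at 5.09 and 4.75 in B16PD1, 4.68 and 4.07 in untreated B16, and 3.24 and 3.40 in R499 (-1.60, adjusted p = 0.14). Atf4 itself was at 8.57 and 9.02 in B16PD1, 8.50 and 9.05 in untreated B16, and 7.81 and 8.25 in R499 (-0.77, adjusted p = 0.40). Both genes were lower in each R499 tumor than in each of the other 4. Of 15 ER chaperone and unfolded protein response genes 0 were higher and 4 lower (26.7%), with a median of -0.548. Against untreated B16 the medians were -0.658 for the ATF4 list and -0.689 for the ER chaperone list. Xbp1 differed by -1.07 (adjusted p = 0.45) and the chaperone gene Hspa5 by -0.24 (0.83). In cells matched on genes detected the medians were -0.345 for the ATF4 list and -0.390 for the ER chaperone list.

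The signaling and G1 checkpoint lists held 0 genes past the threshold, and their shares of genes lower at an unadjusted p under 0.05 exceeded the 8.64% of all genes on counts of 2 or 3 genes. Of 20 immediate early genes 0 were higher and 3 lower (15%), with a median of -0.298 that became -0.089 in cells matched on genes detected. Nr4a1, an orphan nuclear receptor gene, was at 4.10 and 4.0 in B16PD1, 4.44 and 4.99 in untreated B16, and 2.62 and 2.47 in R499 (-1.51, adjusted p = 0.15), and Fos, the most abundant member, differed by -0.27 (0.83). Of 17 YAP and TEAD target genes 0 were higher and 3 lower (17.6%), with F3, the tissue factor gene, both the most abundant and the most different at -1.03 (adjusted p = 0.35). Of 17 MAPK pathway and feedback genes 0 were higher and 2 lower (11.8%), with Etv5 at -0.80 (adjusted p = 0.42) and Dusp6 at -0.04 (0.98). Of 21 p53, RB and G1 checkpoint genes 0 were higher and 3 lower (14.3%), with Bax at -1.22 (adjusted p = 0.31) and Cdk4 at 0.37 (0.64).

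Interferon and antigen presentation genes were examined because the B16PD1 tumors had been exposed to anti-PD1. Of 36 interferon-stimulated genes 0 passed, and the median was -0.047, and 0.123 over the 21 members with a mean of at least 1. At an unadjusted p under 0.05, 1 was higher (2.78%, against 1.56% of all genes) and 2 lower (5.56%, against 8.64%). Ifi27, the most abundant, was at 7.85 and 8.50 in B16PD1, 9.20 and 7.39 in untreated B16, and 10.01 and 8.37 in R499, so the groups overlapped (1.02, adjusted p = 0.50). Irf1, a transcription factor gene, was at 2.23 and 3.57 in B16PD1, 3.47 and 1.39 in untreated B16, and 1.75 and 1.39 in R499 (-1.33, adjusted p = 0.42). Of 20 MHC class I presentation genes 0 reached an unadjusted p under 0.05 in either direction, and the median was 0.151. It was -0.094 for R499 minus untreated B16 and -0.238 for B16PD1 minus untreated B16, so the sign turned against the untreated tumors. B2m, the invariant light chain gene, was at 9.75 and 10.76 in B16PD1, 11.72 and 9.32 in untreated B16, and 11.64 and 10.32 in R499 (0.73, adjusted p = 0.67). The heavy chain genes H2-D1 and H2-K1, which are similar in sequence and may share reads, differed by 1.01 (0.65) and 0.29 (0.90). For each of these 3 genes the untreated tumor B16007 was the highest of the 6 tumors and B16008 the lowest, so the gap between tumors of 1 condition exceeded the differences between conditions.

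Of 13 checkpoint and immune-ligand genes 0 passed. At an unadjusted p under 0.05, 3 were higher (23.1%, against 1.56% of all genes) and 2 lower (15.4%, against 8.64%). The median was 0.058, and -0.323 over the 7 members with a mean of at least 1. Cd274, which encodes PDL1, was at 0.43 and 0.63 in B16PD1, 0.96 and 0.24 in untreated B16, and 1.31 and 0.79 in R499 (0.52, adjusted p = 0.47). The untreated tumor B16007 lay above R499016. Cd47, which inhibits phagocytosis, was at 2.78 and 3.43 in B16PD1, 2.98 and 2.58 in untreated B16, and 1.92 and 2.07 in R499 (-1.11, adjusted p = 0.31), with both R499 tumors below the 4 others. Mif, the most abundant member, differed by 0.13 (adjusted p = 0.86).

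In metabolism, shares at an unadjusted p under 0.05 are set beside 1.56% of all genes higher and 8.64% lower. Of 27 glycolysis and hypoxia genes 3 were higher (11.1%) and 1 lower (3.7%), and the median was 0.138. The lactate transporter gene Slc16a3 differed by 0.89 (adjusted p = 0.46) and Gapdh by 0.08 (0.87). Of 78 nuclear-encoded oxidative phosphorylation genes 5 were higher (6.41%) and 4 lower (5.13%), with a median of 0.064. In cells matched on genes detected that median was 0.309. Uqcrb, a subunit gene of complex III, was at 8.93 and 8.79 in B16PD1, 8.84 and 7.89 in untreated B16, and 9.92 and 9.79 in R499 (1.0, adjusted p = 0.31), and the ATP synthase gene Atp5b differed by 0.49 (0.40). Of 13 mitochondrially encoded protein genes 1 was higher and 1 lower (7.69% each). Among them mt-Nd4l differed by -1.02 (adjusted p = 0.34) and mt-Atp6 by 0.44 (0.48), and both overlap a neighboring gene. Of 23 cholesterol genes 0 were higher and 2 lower (8.7%), with a median of -0.250, Sc5d at -0.78 (0.46) and Fdps at -0.34 (0.68). Of 11 metallothionein and zinc transporter genes 0 were higher and 3 lower (27.3%). Mt2 was at 8.98 and 8.42 in B16PD1, 7.56 and 7.51 in untreated B16, and 7.39 and 7.82 in R499 (-1.10, adjusted p = 0.28), so that R499 overlapped untreated B16 and not B16PD1. Mt1 differed by 0.24 (adjusted p = 0.68).

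With 0.135 added to every gene by centering, the medians of these lists changed from below 0 to above it: MAPK, YAP and TEAD, calpains, dedifferentiation, interferon-stimulated, p53 and RB, and secreted matrix. The lists of S phase, G2/M, ribosomal, ATF4, ER chaperone, immediate early, cholesterol and metallothionein genes stayed below 0.

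**Figure D4:**
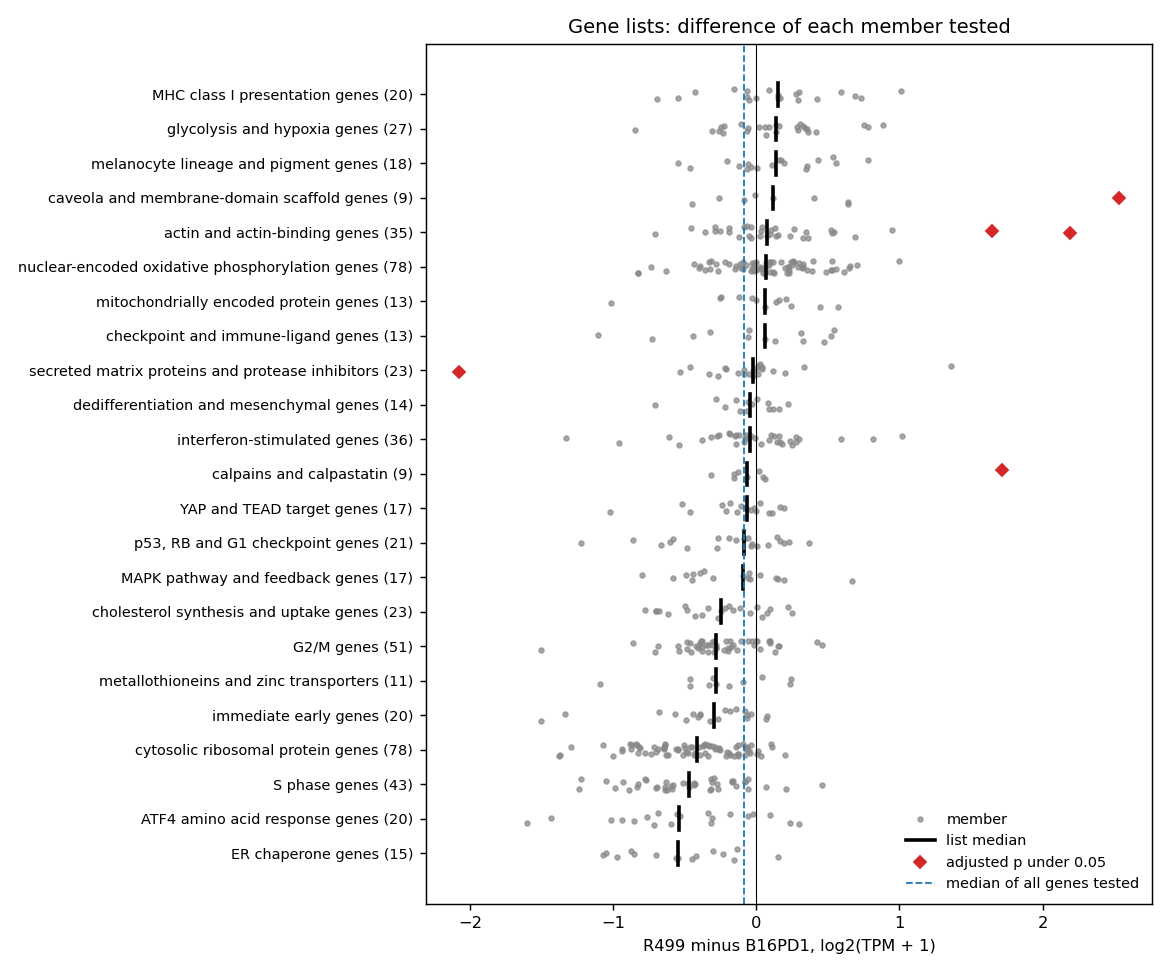
Difference R499 minus B16PD1 on the log2(TPM + 1) scale for every tested member of the gene lists described (gray points; red diamonds, adjusted p under 0.05; black ticks, list median; number of members in parentheses). The dashed line marks the median of all genes, -0.089, and the diamonds are Cav1, Fscn1, Tmsb4x, Capn6 and Serpinf1. Medians run from -0.548 for the ER chaperone list to 0.151 for the MHC class I list.

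Smoothed expression along the chromosomes was compared because a gained or lost segment moves many neighboring genes together. After subtraction of each cell's mean, genes were averaged in 102 successive blocks of 100 to 139 genes on the mouse assembly GRCm38, and 6 blocks (5.88%) differed at an adjusted p under 0.05, 4 of them higher in R499 (3.92%) and 2 lower (1.96%). The largest difference was at the distal end of chromosome 10, from 111473223 to 130364111. That block was at 0.385 and 0.408 in B16PD1, 0.397 and 0.390 in untreated B16, and 0.602 and 0.621 in R499. Both R499 tumors were above the other 4. The difference was 0.215 ± 0.026 (SE, limma, adjusted p = 0.0001), and 81.1% of its 111 genes were above 0 after centering, against 57.2% of all genes. None of the 8 genes lay in it. The genes of this block with the largest differences were Cnpy2 (1.08 before centering), Rab5b (1.05), Pmel (0.78) and Ppm1h (0.67), none past the threshold alone.

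The neighboring block of chromosome 10, from 81321103 to 111301727, was also higher (0.127 ± 0.029, SE, adjusted p = 0.019). On chromosome 1 a block from 74565127 to 97793709 was higher by 0.129 (adjusted p = 0.019) and a block from 4773206 to 46373546 differed by -0.108 (adjusted p = 0.037). A block of chromosome 13, from 59769497 to 92389053, was higher by 0.135 (adjusted p = 0.022), and a block of chromosome 3, from 57841895 to 89430027, differed by -0.116 (adjusted p = 0.011). On chromosome 13 all 4 blocks had differences above 0, from 0.068 to 0.135. None of the 8 genes lay in any of the 6 blocks past the threshold. The 6 blocks also passed with the 8 genes left out, which could not change their values. With each tumor left out in turn, the number of blocks past the threshold was 5 without B16007 or B16008, 2 without B16PD1000, 1 without B16PD1002, 1 without R499015 and 0 without R499016. Without centering, 56 blocks were lower in R499 and 0 higher, and the distal chromosome 10 block no longer passed. DNA was not measured, and whether copy number differs was not tested.

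**Figure D5:**
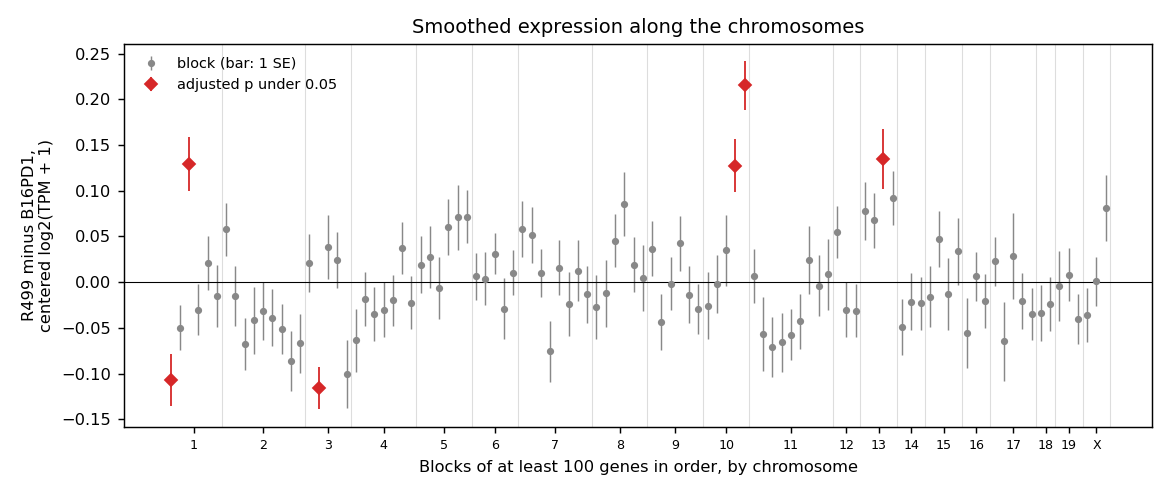
Difference R499 minus B16PD1 of the cell-centered mean log2(TPM + 1) for 102 blocks of at least 100 genes, in order along each chromosome (points; bars, 1 SE; red diamonds, adjusted p under 0.05). The distal block of chromosome 10 is the highest at 0.215 and the chromosome 3 block the lowest at -0.116.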

How the data were processed

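Single-cell RNA sequencing of 6 mouse tumors was used, 2 each of B16, B16PD1 and R499. The authors aligned reads with STAR, quantified them with RSEM and deposited TPM values of 25215 genes in 602 cells, in which no filter had been applied. The build is mm10 per the submitters' processing notes, and tool versions and annotation are not given in the sources used here. Every cell's TPM has 1 common total, so depth in reads is unknown, and genes detected per cell stand in for it. Positions came from GENCODE on GRCm38 and promoters from RefSeq (GRCm38.p6).

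The filter on cells required over 1000 detected genes (TPM above 0) and under 10% mitochondrial TPM, and the filter on genes required detection in over 5 of the cells left. A read minimum was not applied, and doublets were not called. The mean of log2(TPM + 1) over retained cells was the value of a tumor. R499 minus B16PD1 was fitted over all 6 tumors with limma 3.58.1 (R 4.3.3, eBayes with a trend, two-sided, Benjamini-Hochberg over 11264 genes), in place of per-cell tests, since cells are not replicates. The columns name tumors by numbers that no label holds, so each is a replicate of its condition and none is paired. Shares have 95% Wilson intervals. The limma fit alone was run on simulated tumor means with inserted differences. The steps from cells to tumor means were not part of that simulation. Python 3.11.15 (numpy 2.4.6, pandas 2.3.3, scipy 1.17.1, matplotlib 3.10.9) was used for the rest.

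Genes named were those past the threshold; the 8 largest differences in each direction among other genes with a mean of at least 1, an unadjusted p under 0.01 and no overlap; the most different and most abundant member (by the mean of the 4 tumors) of each list; partners of called genes in their list; and Cd274, H2-K1, H2-D1 and B2m. Gene models and pseudogenes were passed over. A few genes and a list that these rules name are not reported here. The genes named with the chromosome blocks were chosen after their values were seen. The groups compared and the lists were chosen with earlier results of these data known. Alternatives were other pseudocounts, filters, centering, a covariate, no trend, only 4 tumors, cells without markers of other types, and leaving out each tumor. Cells matched on genes detected and blocks without the called genes were added after seeing the data.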

Additional observations from a re-analysis of the deposited data

How the results depend on the processing

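Depth in reads is unknown and 2 tumors stood on each side, so small differences were not detectable. The count of genes called in R499 minus B16PD1 was 8 as reported. It was 13 with a pseudocount of 0.1 and 3 with a pseudocount of 10, 14 with genes in at least 10% of cells, 16 with no filter on cells, 14 with cells over 2000 genes and 22 with cells centered (16 higher). By limma it was 0 with the log2 of mean TPM plus 1 (738 genes at an unadjusted p under 0.05), 0 with no filter on genes (1229), 0 with genes detected as a covariate (604), 0 without a trend (1246) and 0 for the share of cells detected (1415). The causes were not tested. Leaving out 1 tumor gave 3 to 8 genes called. Within 1.5 times of the reported count were cells under 5% mitochondrial TPM (6 called, 5 of the 8 among them), only the 4 tumors (8, 7 of the 8), cells without those with 2 markers of other types (10, 6 of the 8) and cells matched on genes detected (12, all 8). The 8 genes kept their direction in each of these settings (Itm2a was not tested with genes in at least 10% of cells). The count of blocks called in R499 minus B16PD1 was 6, and 56 with no centering, which leaves the all-gene difference in every block. Leaving out 1 tumor gave 0 to 5 blocks. With no centering the block on chromosome 1 from 74565127 was at -0.0062, the block on chromosome 10 from 81321103 at -0.0080 and the block on chromosome 13 from 59769497 at -0.00069. No paired analysis was possible because the columns name tumors by numbers that are in no label and that no 2 conditions share.

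Among the other named genes, differences near 0 changed sign in some settings, none of them past the threshold in the main comparison. With cells centered they were Arhgdib 0.00075, Dusp6 0.092, Rpl32 0.096, Cavin1 0.049, Ehd2 0.12 and Trio 0.095. With cells matched on genes detected they were Arhgdib 0.080, Dusp6 0.24, Fos 0.059, Pcna 0.00011 and Cast 0.13. With cells over 2000 genes they were Dusp6 0.098, Cast 0.012 and Trio 0.0086. With genes detected as a covariate they were Zeb2 0.059, Cst3 -0.087, Dusp6 0.37, Irf1 0.61, Tubb4b 0.22, Bax 0.12, Fdps 0.15, Mt1 -0.12, mt-Nd4l 0.051, Rps15a 0.096, Cavin1 0.082, Tmsb10 -0.028 and Trio 0.071. The log2 of mean TPM gave Vim -0.0028, Actg1 -0.041, Dusp6 0.33, Ehd2 0.26 and H2-K1 -0.075. No filter on cells gave Actg1 -0.091, Gapdh -0.059, Capn1 -0.0096, Capns1 -0.039 and Trio 0.0055. A pseudocount of 0.1 gave Cst3 -0.051, and one of 10 gave Dusp6 0.071 and Ehd2 0.0034. In percent of cells detected, Arhgdib differed by 0.142, Cst3 by -1.84, B2m by -0.837, Mif by -1.33, Cdk4 by -0.788 and Mt1 by -0.0985. Cells under 5% mitochondrial TPM gave Cst3 -0.052, Dusp6 0.014 and Cavin1 0.074, and cells without those with 2 markers gave Actg1 -0.010, Cst3 -0.0038, Dusp6 0.022 and Tmsb10 -0.066. Leaving out 1 tumor gave ranges of -0.069 to 0.12 for Actg1, -0.33 to 0.066 for Arhgdib, -0.48 to 0.50 for Cst3, -0.59 to 0.50 for Dusp6, -0.70 to 0.16 for Fos, -0.049 to 0.31 for Mif, -0.83 to 0.26 for Tubb4b, -0.33 to 0.16 for Cavin1, -0.053 to 0.026 for Ehd2, -0.018 to 0.27 for Tmsb10, -0.0075 to 0.049 for Capn1, -0.49 to 0.61 for Capns1, -0.16 to 0.080 for Trio and -0.11 to 0.70 for H2-K1.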
